A study of Arabidopsis thaliana with 8 samples.

Results

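The comparison described here set roots of the uri mutant against wild-type (WT) roots of Arabidopsis when both were kept without iron. It was read across 21180 probe sets of an Affymetrix expression array that were annotated to a single gene, of 22746 probe sets left after 64 control probe sets were removed. WT and uri plants grew for 14 days on half-strength Gamborg medium and then spent 3 days on agar plates of one basal medium that held nitrate, sulfate, phosphate and trace metals. The plates without iron (-Fe) had 300 µM of the iron chelator ferrozine and no added iron in both genotypes, and the plates with iron (+Fe) had 50 µM ferric EDTA. Each of the 4 groups had 2 arrays, labelled biological replicates, so the groups compared here are 2 arrays of uri -Fe and 2 arrays of WT -Fe. The labels name the mutant only as uri, without an allele, an accession of the wild type or the number of plants pooled for an array.

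URI (bHLH121) is a basic helix-loop-helix transcription factor of the iron deficiency pathway. When short of iron, roots of Arabidopsis switch on a cascade of such factors, whose targets acidify the soil, reduce and import iron, secrete coumarins that mobilise it and carry it to the shoot. Plants with too little iron also lose chlorophyll, because its synthesis and the photosynthetic electron transport chain need iron. Whole root systems were profiled, so fewer cells of a type and less transcript per cell cannot be told apart in any of the values below.

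Levels are given as log2 of the deposited intensities, and differences as the log2 difference of uri -Fe minus WT -Fe with its standard error. A difference passed the test at an adjusted p under 0.05. The median intensity of an array lay between 119.09 and 128.06 over the 8 arrays. Replicates differed by a median of 0.097 on the log2 scale between the WT -Fe arrays and 0.119 between the uri -Fe arrays. With iron these medians were larger, 0.14 in WT and 0.165 in uri. The fit used a common spread for all 4 groups, which can understate the error of the comparison with iron. A difference had a median standard error of 0.13, and the smallest one that passed was 0.32. Only 2 arrays per group limit this precision.

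The URI transcript did not tell the genotypes apart on the arrays without iron. In WT -Fe its level was 8.64 and 8.60, in uri -Fe 8.52 and 8.62, a difference of -0.05 ± 0.118 (95% interval -0.31 to 0.20, adjusted p = 0.804). With iron, its level was 8.73 and 8.78 in WT and 7.84 and 7.64 in uri, a difference of -1.02 (adjusted p = 0.000752). The -Fe arrays overlapped for this gene and the +Fe arrays did not, so its transcript gave no check of the genotype label on the arrays labelled uri -Fe. Of the 10 measured genes nearest to URI on its chromosome, 5 on each side, 4 were higher on the uri -Fe arrays, against 12.5% of all probe sets, and none was lower. None of the 10 passed between the genotypes with iron, where 3.22% of all probe sets did. The largest of these was AT3G19800, with a difference of 0.83 ± 0.172 (adjusted p = 0.00302).

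Without iron the genotypes differed at many genes, in both directions. Of 21180 probe sets, 5801 (27.4%) passed, of which 2654 (12.5%) were higher and 3147 (14.9%) lower in uri. At least 2-fold differences were found for 515 (2.43%) higher and 487 (2.3%) lower probe sets, and at least 8-fold differences for 21 higher and 14 lower. The median difference over all probe sets was 0.02, and the 5th and 95th percentiles were -0.74 and 0.70. Without replicate 1 or 2 of WT -Fe, 1560 or 1639 probe sets were higher and 1891 or 1961 lower, and without replicate 2 of uri -Fe 1734 were higher. Centring each array on its median turned the majority, to 3066 higher and 2693 lower, and shifted the median over all probe sets to 0.07. Counts of the gene lists below, without iron, are to be read against 12.5% of all probe sets higher and 14.9% lower. The lists were chosen with earlier results of these data known, so their counts are a description.

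**Figure D1:**
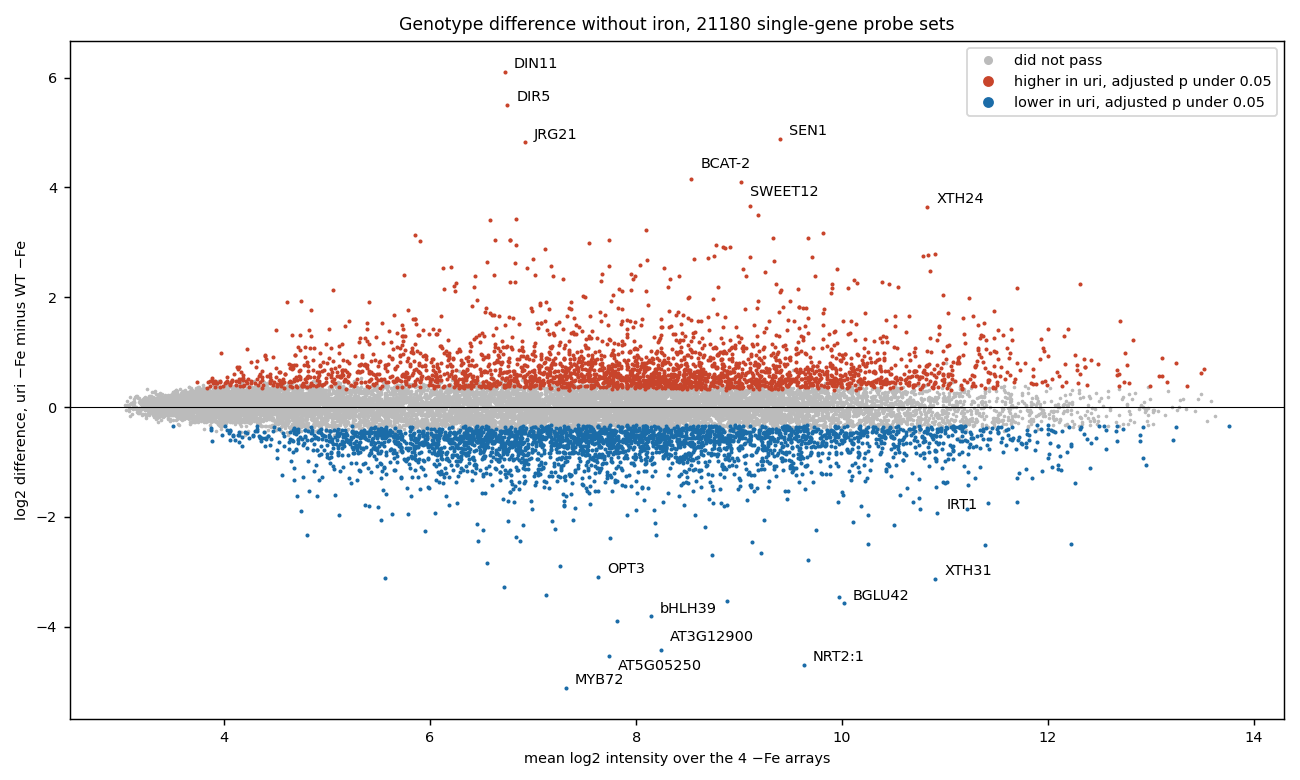
Each point is 1 single-gene probe set, with its mean log2 intensity over the 4 -Fe arrays on the x axis and the log2 difference of uri -Fe minus WT -Fe on the y axis. Red and blue points passed at an adjusted p under 0.05, and the named genes reach from -5.11 (MYB72) to 6.11 (DIN11).

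Most regulators of the iron response were lower in uri. In the list of iron regulators 8 of 12 measured genes passed downward and 1 upward, with a median difference of -0.90 (the share of all probe sets that were lower was 14.9%). bHLH39, a basic helix-loop-helix factor that switches on iron uptake genes, had levels of 10.07 and 10.03 in WT -Fe and 6.34 and 6.14 in uri -Fe. All 4 arrays with iron lay between 4.11 and 4.40 for bHLH39, below both -Fe groups, which did not overlap. The difference without iron was -3.81 ± 0.117 (adjusted p = 9.89e-10).

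BHLH101, a factor of the same subgroup, was less reduced, with 9.25 and 9.28 in WT -Fe and 8.25 and 7.73 in uri -Fe, a difference of -1.28 ± 0.173 (adjusted p = 0.000153). PYE, a repressor of iron homeostasis genes, stood at 7.51 and 7.42 in WT -Fe and at 5.98 and 6.25 in uri -Fe. Its difference was -1.35 ± 0.125 (adjusted p = 8.16e-06), again with no overlap. AT1G74770 and AT1G18910, zinc ion binding proteins in the annotation of the files, differed by -2.49 and -1.21. A dimmer second probe set of AT1G74770 had a smaller difference of -1.55 (adjusted p = 1e-05). AT1G47400, a short protein with no annotated function there, differed by -1.15 ± 0.152 (adjusted p = 0.000126). BTS, an E3 ubiquitin ligase that acts against the pathway, had a smaller difference of -0.64 ± 0.147 (adjusted p = 0.00594), which did not pass without replicate 1 of WT -Fe (adjusted p = 0.0638) or without replicate 2 of uri -Fe (adjusted p = 0.0827). Of the factors of URI's partner subgroup, bHLH104 was higher (0.58, adjusted p = 0.00203), ILR3 lower (-0.38, adjusted p = 0.0338), and bHLH34 (-0.37) and bHLH115 (-0.32) did not pass. ILR3 did not pass without any 1 of the 4 -Fe arrays.

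**Figure D2:**
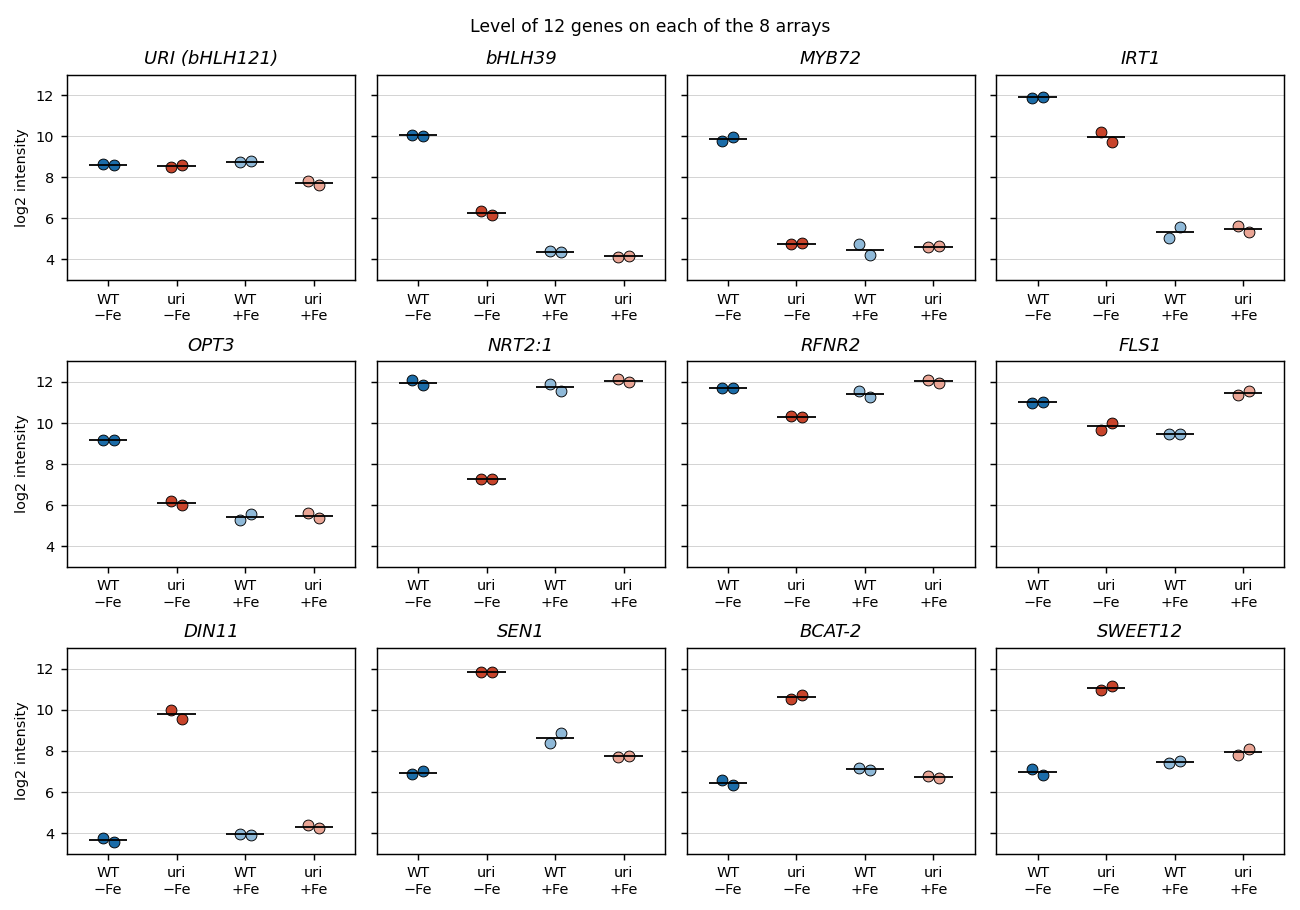
Log2 intensity of 12 genes on each of the 8 arrays, with 1 point per array and a bar at the mean of each group. The uri -Fe arrays fall below the WT -Fe arrays for bHLH39, MYB72, IRT1, OPT3, NRT2:1, RFNR2 and FLS1, lie above them for DIN11, SEN1, BCAT-2 and SWEET12, and overlap them for URI, whose level was 8.52 and 8.62 in uri -Fe.

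Of 6 measured genes of iron uptake and proton pumping, 4 were lower and 1 was higher in uri. IRT1, the main iron importer of the root epidermis, read 11.85 and 11.93 in WT -Fe, 10.22 and 9.70 in uri -Fe, and 5.06 to 5.63 on the arrays with iron. The -Fe groups did not overlap and differed by -1.93 ± 0.193 (adjusted p = 1.47e-05), a 3.8-fold lower level. Its close relative IRT2 (-2.06, adjusted p = 1.62e-05) and the proton pump gene HA7 (-2.18, adjusted p = 3.45e-07) were also lower, and the pump gene HA2 less so (-0.58, adjusted p = 0.00251). NRAMP1, a manganese and iron importer, went the other way, from 11.00 and 10.80 in WT -Fe to 12.19 and 12.24 in uri -Fe (1.32 ± 0.12, adjusted p = 7.24e-06). The pump gene HA1 (0.11) did not pass.

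Of 11 vacuolar metal transporters, 6 were lower and 1 was higher. The lower ones were led by AT3G58060, a cation efflux protein (-3.28 ± 0.153, adjusted p = 2.28e-08), the heavy metal pump HMA3 (-2.39), the zinc transporter MTPA2 (-1.97) and IREG2 (-1.48), which moves metals into the vacuole. NRAMP3, which releases iron from the vacuole, was the higher one (0.98 ± 0.133, adjusted p = 0.000154). Among 11 genes of long-distance iron transport, 6 were lower and 1 higher. OPT3, a phloem transporter that takes part in iron signalling from shoot to root, read 9.17 and 9.18 in WT -Fe, 6.18 and 5.99 in uri -Fe and 5.29 to 5.60 with iron, so the uri -Fe arrays lay far nearer to the iron-fed arrays than to WT -Fe. Its difference was -3.09 ± 0.135 (adjusted p = 1.42e-08). The nicotianamine synthase genes NAS1 (-2.15) and NAS4 (-1.56) and the ferric reductase gene FRO3 (-2.09) were lower, and the transporter gene YSL3 was higher (0.92, adjusted p = 0.000113).

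None of the 4 ferritin genes, which encode the iron storage protein, passed. FER1 had 10.46 and 10.43 in WT -Fe and 10.33 and 10.56 in uri -Fe, a difference of 0.00 ± 0.122, while its level with iron was 12.19 to 12.42. The differences of FER2 (-0.13), FER3 (0.08) and FER4 (0.30) were small too. FER4 passed when only the 4 -Fe arrays were fitted (adjusted p = 0.0442), with arrays centred on their medians (adjusted p = 0.0452) and with quantile normalization (adjusted p = 0.0477).

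All 8 genes of coumarin synthesis and secretion were lower in uri, with a median difference of -2.98. MYB72, a transcription factor needed for coumarin secretion, read 9.76 and 9.98 in WT -Fe and 4.74 and 4.78 in uri -Fe. The uri -Fe arrays lay at the level of the arrays with iron, which read 4.2 to 4.75. This was the lowest difference of all single-gene probe sets, -5.11 ± 0.161 or 34.6-fold lower (adjusted p = 9.89e-10). The uri -Fe values of MYB72 lay just above the lower quartile of those arrays (4.71), where a fold is less exact.

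AT3G12900, an iron(II)-dependent oxygenase in the annotation of the files, read 10.46 and 10.45 in WT -Fe and 6.01 and 6.03 in uri -Fe (-4.43 ± 0.138). BGLU42, a beta-glucosidase that frees coumarins from their sugar, stood at 11.80 on both WT -Fe arrays and at 8.21 and 8.26 in uri -Fe, below the range of 8.56 to 9.0 with iron. MYB10 (-3.43), AT3G13610 (-2.52), CYP82C4 (-2.46), AT1G28680 (-1.26) and the exporter gene ABCG37 (-0.95) made up the rest of the list. No member of the list passed between the genotypes with iron.

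Upstream of the coumarins, 14 of 16 genes of the phenylpropanoid and monolignol pathway were lower and 1 was higher, with a median of -0.68. None was higher without replicate 2 of WT -Fe or without either uri -Fe array. PAL1 and PAL2, which take phenylalanine into the pathway, differed by -1.72 (adjusted p = 4.79e-07) and -1.86 (adjusted p = 5.63e-07). 4CL1 (-1.74) and 4CL2 (-1.86), which activate the acids made from it, and the hydroxylase gene CYP98A3 (-1.20) were also lower. In the flavonoid branch, 5 of 10 genes were lower and none was higher. FLS1, the flavonol synthase gene, read 10.99 and 11.03 in WT -Fe and 9.68 and 9.99 in uri -Fe (-1.17 ± 0.131, adjusted p = 3.5e-05), without overlap.

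Nitrate uptake and assimilation, which are not iron transport, held one of the largest differences. NRT2:1, the main high-affinity nitrate transporter gene of the root, read 12.11 and 11.83 in WT -Fe and 7.29 and 7.27 in uri -Fe. All 4 arrays with iron read 11.55 to 12.14, so the uri -Fe arrays alone were low. The difference was -4.69 ± 0.144, a 25.8-fold lower level (adjusted p = 9.89e-10).

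In addition, 3 nitrate transport genes were lower, namely WR3 (NRT3.1), the partner protein of that transporter (-1.42, adjusted p = 3.68e-06), NRT2.4 (-1.36, adjusted p = 3e-05) and the dual-affinity transporter NRT1.1 (-0.82, adjusted p = 0.000217). The repressor gene LBD38 was higher (0.53, adjusted p = 0.0182) but did not pass without any 1 of the 4 -Fe arrays (adjusted p from 0.0643 to 0.124). The other 7 of the 12 measured genes did not pass, among them NRT2.2 (-0.38), NRT2.5 (-0.09) and NRT1.5 (-0.06).

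Of 12 genes of nitrate assimilation and its supply of reductant, 9 were lower and none was higher, with a median of -0.52. RFNR2, a root ferredoxin reductase that feeds electrons to nitrite reduction, read 11.70 and 11.69 in WT -Fe and 10.34 and 10.28 in uri -Fe. This difference of -1.38 ± 0.128 (adjusted p = 7.78e-06) was close to those of G6PD3, which makes NADPH in plastids (-1.32), and of the nitrate reductase gene NIA1 (-1.29). The nitrite reductase gene NIR1 (-0.86, adjusted p = 0.000152) and the plastid glutamine synthetase gene GS2 (-0.66, adjusted p = 0.00225) were lower too.

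Ammonium and amide genes split. GDH1 and GDH2, the glutamate dehydrogenases that release ammonium from glutamate, were higher by 2.38 (adjusted p = 7.71e-08) and 2.17 (adjusted p = 6.45e-08), and so was the asparagine synthetase gene ASN1 (2.17). The cytosolic glutamine synthetase gene GSR 1 (-1.14, adjusted p = 1.15e-05) and the ammonium transporter gene AMT1;1 (-1.07, adjusted p = 3.11e-05) were lower. In all 3 of 11 were higher and 4 lower, and leaving out any 1 of the 4 -Fe arrays left 2 lower.

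**Figure D3:**
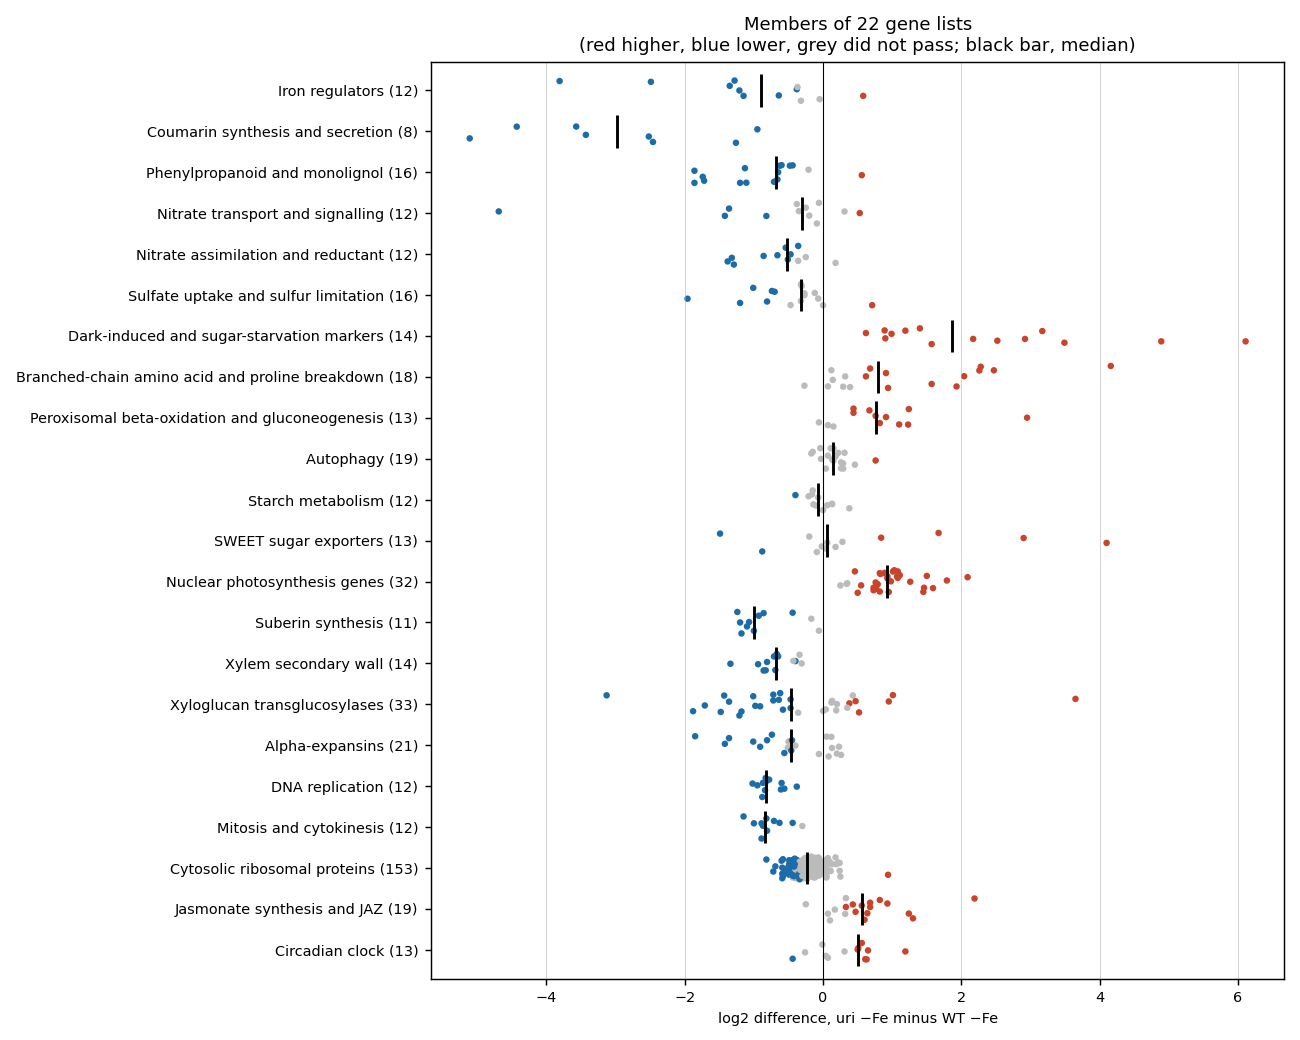
Log2 difference of uri -Fe minus WT -Fe for the measured members of 22 gene lists, with 1 point per gene, the number of members in brackets and a bar at the median. All 14 dark-induced genes lie to the right and all 8 coumarin genes to the left of 0, while autophagy and starch genes gather near 0.

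Genes that plants switch on in prolonged darkness or when sugar runs out were higher in uri. All 14 measured members of that list passed upward, against 12.5% of all probe sets, with a median of 1.87 and a range from 0.62 (DIN10) to 6.11. The list was chosen with earlier results of these data known, so this count is no independent support. DIN11, a dark-induced oxygenase gene, read 3.77 and 3.57 in WT -Fe and 10.00 and 9.56 in uri -Fe. With iron its level was 3.92 to 4.40, so the uri -Fe arrays stood alone. The difference was 6.11 ± 0.148 (adjusted p = 3.13e-10), the largest of all, and 69.1-fold on values that in WT lay under the lower quartile of the arrays (4.66), where a fold is less exact.

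SEN1, a marker of senescence and darkness, read 6.88 and 7.02 in WT -Fe, 11.85 and 11.83 in uri -Fe and 7.73 to 8.88 with iron (4.89 ± 0.146, adjusted p = 9.89e-10). The ubiquitin ligase gene ATL8 (3.49), the amidotransferase-like gene GAT1_2.1 (3.17) and the beta-glucosidase gene DIN2 (2.92) followed. Each of these was at least 7.59-fold higher in uri -Fe. The bifunctional xylosidase gene BXL1 (2.52), DIN4 of the branched-chain ketoacid dehydrogenase (1.57) and AKINBETA1, a subunit of the energy sensor kinase SnRK1 (1.19), were higher with smaller differences.

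Class II trehalose-phosphate synthases, which respond to sugar status, did not move as one. TPS11 (1.56, adjusted p = 3.84e-06), TPS10 (1.34), TPS8 (1.33) and TPS9 (0.63) were higher, and TPS5 was lower (-0.83, adjusted p = 0.000545). With the SnRK1 subunits, 5 of 9 genes were higher and 1 lower. Of 4 measured bZIP factors that act under low energy, BZIP9 (0.74), BZIP25 (0.60) and BZO2H3 (bZIP63, 0.53) were higher and BZO2H1 (bZIP10, 0.03) did not pass. BZIP25 did not pass without replicate 1 of WT -Fe (adjusted p = 0.0711), nor BZO2H3 without replicate 2 of WT -Fe (adjusted p = 0.0679).

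Many genes that break down branched-chain amino acids were higher in uri. Of 18 measured genes of that list, which includes proline breakdown, 11 were higher and none was lower, with a median of 0.80. BCAT-2, a branched-chain aminotransferase gene, read 6.58 and 6.34 in WT -Fe and 10.51 and 10.72 in uri -Fe, and 6.70 to 7.19 with iron. The -Fe groups did not overlap, and the difference was 4.16 ± 0.13 (adjusted p = 9.89e-10).

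Genes of later steps in the breakdown were higher as well. BCE2, a subunit of the branched-chain ketoacid dehydrogenase, differed by 2.47 (adjusted p = 2.54e-08), the isovaleryl-CoA dehydrogenase gene IVD by 2.28 (adjusted p = 2.4e-07), and MCCA and MCCB, the subunits of methylcrotonyl-CoA carboxylase, by 2.04 and 2.26. The electron carrier gene ETFQO (0.91) and the proline dehydrogenase gene ERD5 (0.68) were higher, while BCAT-1 (0.32), ETFBETA (0.39), ETFALPHA (0.14) and D2HGDH (0.07) did not pass. MGL, a methionine gamma-lyase that breaks down another amino acid, read 8.20 and 8.07 in WT -Fe and 11.16 and 11.25 in uri -Fe (3.07 ± 0.113, adjusted p = 3.16e-09).

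Fatty acid oxidation and the glyoxylate cycle followed the same direction, with 10 of 13 genes higher, none lower and a median of 0.76. MLS, the malate synthase gene of the glyoxylate cycle, read 5.21 and 5.50 in WT -Fe and 8.17 and 8.44 in uri -Fe (2.95 ± 0.148, adjusted p = 4.21e-08). ICL, the isocitrate lyase gene of the same cycle (1.1), ACX4 of the peroxisome (1.23), the gluconeogenic gene PCK1 (1.24) and the acyl-CoA synthetase gene LACS7 (0.91) were higher. PPDK, which also lies on a route back to sugars, was higher by 3.22 ± 0.142 (adjusted p = 1.42e-08).

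Autophagy genes did not share this pattern. ATG8B (0.76, adjusted p = 0.000574) was the 1 gene of 19 that passed, and the list median was 0.15. ATG8F (0.46, adjusted p = 0.055) lay at the threshold and passed in 8 alternative settings. Of 11 senescence genes, 5 were higher and 1 lower, and leaving out any 1 of the 4 -Fe arrays left 3 higher. The senescence factors NAP (2.72 ± 0.162, adjusted p = 1.82e-07) and ORE1 (NAC6 in the annotation, 1.8, adjusted p = 1.05e-06) led, and WRKY53 was lower (-0.77, adjusted p = 0.000505). Of 12 starch genes 1 was lower (AMY3, -0.40, adjusted p = 0.0297), with a list median of -0.08, and AMY3 did not pass without any 1 of the 4 -Fe arrays (adjusted p from 0.102 to 0.155) or with median centring (adjusted p = 0.0576).

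Of 13 sugar exporters of the SWEET family 4 were higher and 2 lower, against 12.5% and 14.9% of all probe sets. The share that was lower lay near that of all probe sets. SWEET12 read 7.11 and 6.83 in WT -Fe, 10.98 and 11.15 in uri -Fe and 7.41 to 8.08 with iron (4.1 ± 0.141, adjusted p = 2.03e-09). SWEET11, which acts with it in loading sucrose into the phloem of leaves, differed by 2.90 ± 0.185 (adjusted p = 3.09e-07) and the vacuolar SWEET2 by 1.67 (adjusted p = 1.24e-06). SWEET13 (-1.49, adjusted p = 5.91e-06) and SWEET14 (-0.88, adjusted p = 0.000578) were lower. Of 13 genes of sugar uptake and sucrose cleavage, 8 were higher, led by the hexose carrier gene STP14 (2.2, adjusted p = 8.86e-07), and the sucrose synthase gene SUS4 was lower (-1.81, adjusted p = 8.19e-06). Without replicate 1 of WT -Fe 4 of them were higher, and without replicate 1 of uri -Fe 5.

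Amino acid transport also held both directions. UMAMIT33, a member of a family of amino acid exporters, read 7.26 and 7.28 in WT -Fe and 10.84 and 11.04 in uri -Fe (3.66 ± 0.127, adjusted p = 2.03e-09), with no overlap. Over the 36 UMAMIT genes measured, 3 were higher and 10 lower, against 12.5% and 14.9% of all probe sets, with a median of -0.09. The share that was higher thus did not exceed that of all probe sets. UMAMIT14 was the lowest (-2.07, adjusted p = 2.42e-07). AAP3 was higher (2.12, adjusted p = 1.22e-06) and LHT1, a major root importer of amino acids, lower (-0.95, adjusted p = 0.000113). Of 10 amino acid importers, 2 were higher and 5 lower.

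Photosynthesis genes of the nucleus were higher in uri roots, 29 of 32 with none lower and a median of 0.93. GAPA, an enzyme of carbon fixation, read 8.39 and 8.31 in WT -Fe and 10.50 and 10.38 in uri -Fe (2.09 ± 0.122, adjusted p = 1.51e-07), and 9.02 to 9.25 with iron. Thus WT -Fe was the lowest and uri -Fe the highest of the 4 groups. PSBQ-2 (1.79), LHCB4.1 (1.59), PSAN (1.5) and PETC (1.46), all members of this list, differed alike.

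These 32 genes also serve as markers of green tissue. Their summed linear intensity was 7503 to 7609 in WT -Fe, 14481 to 15837 in uri -Fe, 11182 to 12298 in WT +Fe and 9781 to 10573 in uri +Fe. In uri -Fe no marker and in WT -Fe 1 marker lay under the lower quartile of the arrays. The part of green tissue in the differences of the dark-induced, amino acid breakdown and sugar genes was not tested. Of 72 transcripts of the plastid genome, 12 were higher, a share near the 12.5% of all probe sets, and none lower, with a median of 0.20. Between 4 and 6 were higher without replicate 1 or 2 of WT -Fe or replicate 1 of uri -Fe. Chlorophyll synthesis and light signalling held 5 higher genes of 14, led by HEMA1 (0.98) and CHLM (0.97), and 1 lower gene, ELIP1 (-0.78, adjusted p = 0.0315), which did not pass without either WT -Fe array or without replicate 1 of uri -Fe (adjusted p from 0.0977 to 0.331).

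**Figure D4:**
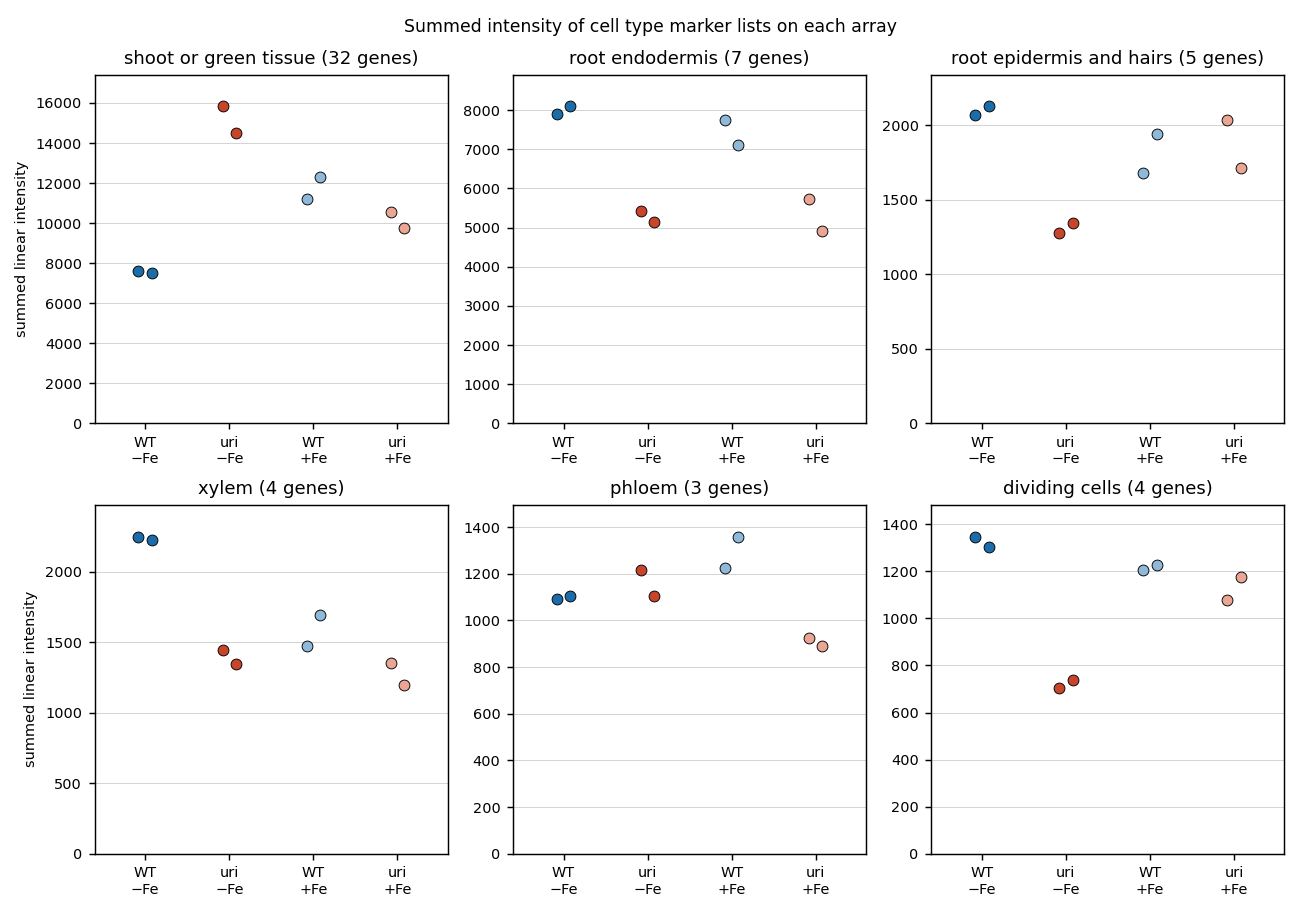
Summed linear intensity of 6 marker lists on each of the 8 arrays, 1 point per array, with y axes that start at 0. Green tissue markers are highest in uri -Fe (14481 to 15837), and the markers of dividing cells, root epidermis and hairs are lowest there.

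Markers of root tissues were mostly lower in uri. The summed intensity of 7 endodermis markers was 7897 to 8097 in WT -Fe and 5137 to 5433 in uri -Fe, and with iron it was 7113 to 7756 in WT and 4913 to 5723 in uri. Of these 7 markers, 4 passed downward and none upward without iron, and the rest did not pass. Such a sum weighs the brightest markers most. CASP1, which builds the Casparian strip, differed by -0.66 (adjusted p = 0.00125) and CASP4 by -0.99 (adjusted p = 0.000374). In all 7 of 11 Casparian strip and endodermis genes were lower and 1 was higher, and 3 were lower without replicate 2 of uri -Fe. The higher one did not pass without replicate 1 of either -Fe group. With iron 5 of these 11 genes were lower, against 1.85% of all probe sets lower in that comparison. That count was 1 without replicate 1 of WT +Fe or replicate 2 of uri +Fe, and 2 without replicate 2 of WT +Fe or either WT -Fe array.

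Suberin synthesis, which seals older endodermis, had 9 of 11 genes lower and none higher, with a median of -1.0. LACS2 (-1.24, adjusted p = 2.95e-05), CYP86A1 (-1.20, adjusted p = 0.000344), CYP86B1 (-1.18), FAR4 (-1.10) and KCS2 (-1.07) led. With iron FAR1 was the 1 suberin gene that was lower (-0.75, adjusted p = 0.00531), but it did not pass without replicate 1 of WT +Fe (adjusted p = 0.0604).

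Secondary walls of the xylem showed 11 of 14 genes lower and none higher (median -0.68). FLA12 read 7.65 and 7.90 in WT -Fe and 6.46 and 6.41 in uri -Fe (-1.34 ± 0.136, adjusted p = 1.62e-05), and the cellulose synthase gene IRX3 differed by -0.83 (adjusted p = 0.000136). Summed over 4 xylem markers, WT -Fe was at 2228 to 2249 and the other groups at 1194 to 1693. Phloem genes did not share the direction. PP2-A1 (0.90), FTIP1 (0.55), HA3 (0.54), APL (0.44) and SUC2 (0.39) were higher and SEOR1 lower (-0.65), though the count of 5 higher genes was 1 or 3 without replicate 1 or 2 of WT -Fe and 3 without replicate 1 of uri -Fe.

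Root hair and epidermis genes were lower for 7 of 14 and higher for 1, which did not pass without any 1 of the 4 -Fe arrays. LRX1, a wall protein of root hairs, differed by -1.11 (adjusted p = 5.03e-05), the NADPH oxidase gene RHD2 by -0.87 (adjusted p = 0.000225) and the cell fate gene GL2 by -0.67 (adjusted p = 0.0011). The sum of 5 such markers was 2068 to 2127 in WT -Fe, 1278 to 1344 in uri -Fe and 1680 to 2034 with iron, with uri -Fe below all other arrays. Of these 5 markers, 3 passed downward and none upward without iron.

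Gene families for wall loosening in growing cells differed mostly downward where they passed. Of 33 xyloglucan transglucosylase genes, 18 were lower and 6 higher, and of 21 alpha-expansin genes 10 were lower and none higher, with medians of -0.47 and -0.46 (9 and 11 did not pass). XTH31 read 12.43 and 12.51 in WT -Fe, 9.34 on both uri -Fe arrays and 11.36 to 11.74 with iron (-3.13 ± 0.111, adjusted p = 2.51e-09). XTH24 ran opposite, from 8.99 and 9.01 to 12.63 and 12.68 (3.65 ± 0.142, adjusted p = 4.93e-09), and 9.24 to 9.60 with iron. Neither gene's -Fe groups overlapped. EXPA17 (-1.85, adjusted p = 1.53e-06), EXPA4 (-1.42) and EXPA15 (-1.36) were the lowest expansins. Without replicate 1 of WT -Fe or replicate 2 of uri -Fe, 3 transglucosylase genes were higher.

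Cell division genes were lower. All 12 measured DNA replication genes and 11 of 12 genes of mitosis and cytokinesis passed downward, with medians of -0.83 and -0.84. MCM2, part of the replicative helicase, read 6.61 and 6.64 in WT -Fe, 5.70 and 5.66 in uri -Fe and 6.68 to 6.88 with iron (-0.95 ± 0.116, adjusted p = 6.78e-05). CYCA1;1, a cyclin of dividing cells, differed by -1.15 (adjusted p = 1.45e-05), the replication factor gene ETG1 by -1.02 (adjusted p = 0.000144) and the cytokinesis gene SYP111 (KNOLLE) by -0.87 (adjusted p = 0.000192). The summed intensity of 4 markers of dividing cells was 1303 to 1348 in WT -Fe, 705 to 739 in uri -Fe and 1080 to 1227 with iron.

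Of 153 cytosolic ribosomal protein genes 39 were lower, against 14.9% of all probe sets, 1 was higher and 113 did not pass, with a median of -0.23. The lower count rested on all 4 arrays, since 9 to 17 genes were lower when any 1 of them was left out, and 25 were lower with arrays centred on their medians. The lowest was AT5G59240 (-0.82 ± 0.125, adjusted p = 0.000368), and AT5G39850, annotated as a small subunit protein, was the higher one (0.94, adjusted p = 6.56e-05). Among Aux/IAA repressors of auxin response, 12 of 30 were lower and 4 higher, with SHY2 the lowest (-1.25 ± 0.139, adjusted p = 3.27e-05), but 5 or 7 were lower without any 1 of the 4 -Fe arrays, and 1 or none was higher without replicate 1 of WT -Fe or replicate 2 of uri -Fe. The cytokinin response regulators ARR7 (-1.53, adjusted p = 2.3e-05) and ARR3 (-1.14, adjusted p = 1.22e-05) were lower, and ARR5 (RR5, 0.44) was higher, in a list of 9 with 3 lower and 1 higher. ARR5 did not pass without either WT -Fe array (adjusted p = 0.178 and 0.128) or without replicate 2 of uri -Fe (adjusted p = 0.337).

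Sulfur genes were lower in part. Of 16 genes of sulfate uptake and sulfur limitation, 6 were lower and 1 higher, with a median of -0.32. The ATP sulfurylase gene APS3 read 9.63 and 9.47 in WT -Fe and 7.58 and 7.62 in uri -Fe (-1.96 ± 0.147, adjusted p = 1.29e-06), and the reductase gene APR1 differed by -1.01 (adjusted p = 7.87e-05). LSU2 (-1.20) did not pass without replicate 1 of uri -Fe (adjusted p = 0.0587). Glucosinolate synthesis had 9 of 17 genes lower and 1 higher, with its regulator MYB28 at -1.0 (adjusted p = 4.14e-05), and 4 lower without replicate 2 of WT -Fe. The higher one did not pass without replicate 2 of WT -Fe or either uri -Fe array.

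For other nutrients the lists were mixed, to be read against 12.5% of all probe sets higher and 14.9% lower. COPT2, a copper importer, was lower (10.59 and 10.49 against 7.85 and 7.93, a difference of -2.65 ± 0.189, adjusted p = 8.1e-07), and so was the iron superoxide dismutase gene FSD1 (-0.75), among 4 of 15 copper and dismutase genes lower and none higher. Zinc genes ran upward for 5 of 12, with the importer genes ZIP5 (1.08) and ZIP4 (1.07) and the exporter gene HMA4 (0.96), while ZIP9 was lower (-0.95). Phosphate starvation genes counted 2 higher and 5 lower of 13, PAP17 being the highest (1.18) and PAP10 the lowest (-0.95). The lower count was 2 for the copper list without replicate 2 of either -Fe group, and 3 for the phosphate list without either WT -Fe array or replicate 2 of uri -Fe. The higher count of the phosphate list, near the share of all probe sets, was 1 without any 1 of the 4 -Fe arrays.

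Of 19 jasmonate genes 13 were higher and none lower, with a median of 0.56. JAZ10, a repressor that the hormone induces, read 5.41 and 5.25 in WT -Fe and 7.36 and 7.69 in uri -Fe (2.19 ± 0.221, adjusted p = 1.51e-05). JAZ7 (1.30), TIFY7 (JAZ9, 1.24) and the synthesis gene AOS (0.93) followed, and the count of higher genes was 6 without replicate 1 of WT -Fe and 8 without replicate 1 of uri -Fe. JRG21, a jasmonate-regulated oxygenase gene, was higher by 4.82 ± 0.213 (adjusted p = 1.42e-08), from 4.28 and 4.74 to 9.58 and 9.09. The WT -Fe values of JRG21 lay under and just above the lower quartile of those arrays (4.66), where a difference is less exact. Of the salicylate genes PR1 (1.26) and WRKY70 (1.13) were higher and 6 of 8 did not pass. Of 12 abscisic acid genes 4 were higher, RAB18 by the most (0.93, adjusted p = 0.0176), but none passed without either WT -Fe array or without replicate 2 of uri -Fe.

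Ethylene genes held 2 higher and 3 lower of 14, shares near those of all probe sets (12.5% and 14.9%), and 1 higher without either WT -Fe array, with the synthesis genes ACO1 (-1.08), ACS6 (-0.96) and ACS2 (-0.93) lower and ERF1 higher (0.76). The circadian clock list had 7 of 13 genes higher and 1 lower with a median of 0.50, led by PRR7, which read 7.58 and 7.64 in WT -Fe and 8.89 and 8.72 in uri -Fe (1.19 ± 0.117, adjusted p = 1.24e-05). The morning genes CCA1 (-0.26) and LHY (0.07) did not pass, TOC1 was higher (0.63) and GI lower (-0.44), though GI did not pass without any 1 of the 4 -Fe arrays. Low-oxygen genes counted 6 lower and 3 higher of 12, with 1 higher without replicate 1 of either -Fe group. ADH1, the alcohol dehydrogenase gene, was among the lower (-1.10, adjusted p = 3.75e-05) and HRE1 (ERF73) among the higher (0.91, adjusted p = 0.00105). With iron 6 of the 12 were lower, against 1.85% of all probe sets, but 3 without either WT -Fe array and none without replicate 1 of WT +Fe or replicate 2 of uri +Fe.

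Among stress genes, HSP90.1 (1.78, adjusted p = 2.57e-05) and HSFA2 (1.07) led the 4 of 7 heat shock genes that were higher. The catalase genes CAT1 (1.02) and CAT3 (0.98) were higher and the ascorbate peroxidase gene SAPX lower (-0.61) in a list of 8, where SAPX did not pass without replicate 2 of WT -Fe (adjusted p = 0.0606) or of uri -Fe (adjusted p = 0.0808). Alternative oxidases and dehydrogenases (1 higher and 1 lower of 9), transcripts of the mitochondrial genome (1 higher of 49, median 0.09) and root aquaporins (4 lower of 15, median -0.08, with 2 lower without either WT -Fe array) held few genes that passed. The 3 calls among the oxidases, dehydrogenases and mitochondrial transcripts did not pass without any 1 of the 4 -Fe arrays. TIP2;1, a vacuolar aquaporin listed as DELTA-TIP, was the lowest aquaporin gene (-1.17, adjusted p = 1.46e-05).

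Several of the largest differences lay outside these lists. AT5G05250, with no annotated function, read 10.07 and 9.93 in WT -Fe and 5.51 and 5.42 in uri -Fe (-4.53 ± 0.168, adjusted p = 3.25e-09). AT5G04730, an ankyrin repeat protein in the annotation, differed by -3.90 (adjusted p = 2.03e-09), AT5G38820, of an amino acid transporter family, by -3.53 (adjusted p = 3.25e-09), and the glutathione transferase gene GSTL1 by -3.46 (adjusted p = 6.45e-08). AT5G10040 (-3.12) was dim in uri -Fe and AT5G62420, an aldo/keto reductase, differed by -2.89. Of these 6, AT5G05250 (-1.40) and AT5G04730 (-0.81) also passed between the genotypes with iron, AT5G04730 not without replicate 1 of WT +Fe (adjusted p = 0.0765).

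Upward, DIR5, which encodes a dirigent protein, read 4.2 and 3.80 in WT -Fe and 9.37 and 9.63 in uri -Fe (5.50 ± 0.147, adjusted p = 5.31e-10), while the related DIR1 (-1.14) and DIR6 (-0.84) were lower. Both WT -Fe values of DIR5 lay under the lower quartile of those arrays (4.66), where a difference is less exact. ALMT1, a malate channel of the root tip, read 5.10 and 5.14 in WT -Fe and 8.67 and 8.43 in uri -Fe (3.43 ± 0.125, adjusted p = 3.02e-09). It was the 1 gene of the 15 highest that also passed upward with iron (1.21, adjusted p = 0.000301). The defensin gene PDF1.4 (3.40) and AT5G07570, a glycine and proline-rich protein (3.14), completed the 15 highest genes.

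The difference between the genotypes was far smaller with iron, and for many genes it had the other sign. With iron 683 probe sets passed (3.22%), 291 higher (1.37%) and 392 lower (1.85%), and 52 (0.246%) were at least 2-fold higher and 48 (0.227%) at least 2-fold lower. This count was 173 without replicate 1 of WT +Fe, 299 without replicate 2 of uri +Fe, 390 without replicate 2 of WT +Fe, 404 without either WT -Fe array, and 1325 without replicate 1 of uri +Fe. The comparison with iron shares no array with the one without, but both tests used a common spread estimated from all 8 arrays. They are therefore not independent. Of 464 probe sets that passed in both, 183 had the same direction and 281 the opposite one, and without any 1 of the 8 arrays the same direction was held by 40 to 300 and the opposite one by 95 to 496. The difference between the 2 genotype differences, tested as an interaction term, passed for 4457 probe sets (21%), 2096 upward (9.9%) and 2361 downward (11.1%). All 281 of opposite direction were among them, which followed from how they were picked and is no separate support. By at least 2-fold the interaction passed upward for 743 (3.51%) and downward for 660 (3.12%). Across all probe sets the 2 differences had a Pearson correlation of -0.09, given as a description over genes that are not independent.

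Dark-induced genes showed the change of sign. Counts in this paragraph are to be read against 1.85% of all probe sets lower and 1.37% higher with iron, and 9.9% with the interaction upward. SEN1 was lower with iron (-0.90, adjusted p = 0.00594), as were GAT1_2.1 (-0.91), ATL8 (-0.80), BXL1 (-0.99) and DIN10 (-0.96), so that 9 of 14 were lower, 1 (DIN2, 0.57) was higher and the list median was -0.81. SEN1, BXL1 and DIN10 passed with iron whichever array was left out, while ATL8 and GAT1_2.1 did not pass without either WT +Fe array or replicate 2 of uri +Fe (adjusted p from 0.0683 to 0.105), nor DIN2 without 5 of the arrays. The interaction passed upward for all 14. Branched-chain amino acid genes had 5 of 18 lower with iron and none higher, among them BCE2 (-1.30, adjusted p = 0.000146) and IVD (-1.06, adjusted p = 0.00191), and the interaction passed upward for 11. The 5 were 3 without replicate 1 of WT +Fe or replicate 2 of uri +Fe. TPS11 differed by -1.17 (adjusted p = 0.000625) and TPS8 by -1.12 (adjusted p = 0.00594) with iron, both opposite to their sign without it, though TPS8 did not pass without replicate 1 of WT +Fe (adjusted p = 0.0857). Photosynthesis genes had 4 of 32 lower with iron, of which 1 passed without replicate 1 of WT +Fe and none without replicate 2 of WT +Fe or of uri +Fe. The interaction passed upward for 27.

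Nitrate, flavonoid and sulfur genes turned the other way. Their counts are to be read against 1.37% of all probe sets higher with iron and 11.1% with the interaction downward. With iron 4 of 12 nitrate assimilation genes were higher in uri, such as G6PD3 (0.82, adjusted p = 0.00296) and NIR1 (0.72, adjusted p = 0.00579), and the interaction passed downward for 10. The 4 were 2 without either WT +Fe array or replicate 2 of uri +Fe, and NIR1 did not pass without replicate 1 of WT +Fe (adjusted p = 0.0586). FLS1 read 9.47 and 9.45 in WT +Fe and 11.35 and 11.55 in uri +Fe (1.99, adjusted p = 1.9e-05), and 8 of 10 flavonoid genes were higher with iron, with a median of 1.32. Of the 16 sulfur genes 8 were higher with iron, with a median of 0.61, for example SDI1 (ATSDI1, 1.64) and LSU1 (1.44), and the interaction passed downward for 14. The 8 were 5 without replicate 1 of WT +Fe. For NRT2:1 the difference with iron was 0.34 (adjusted p = 0.265) and the interaction -5.03.

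**Figure D5:**
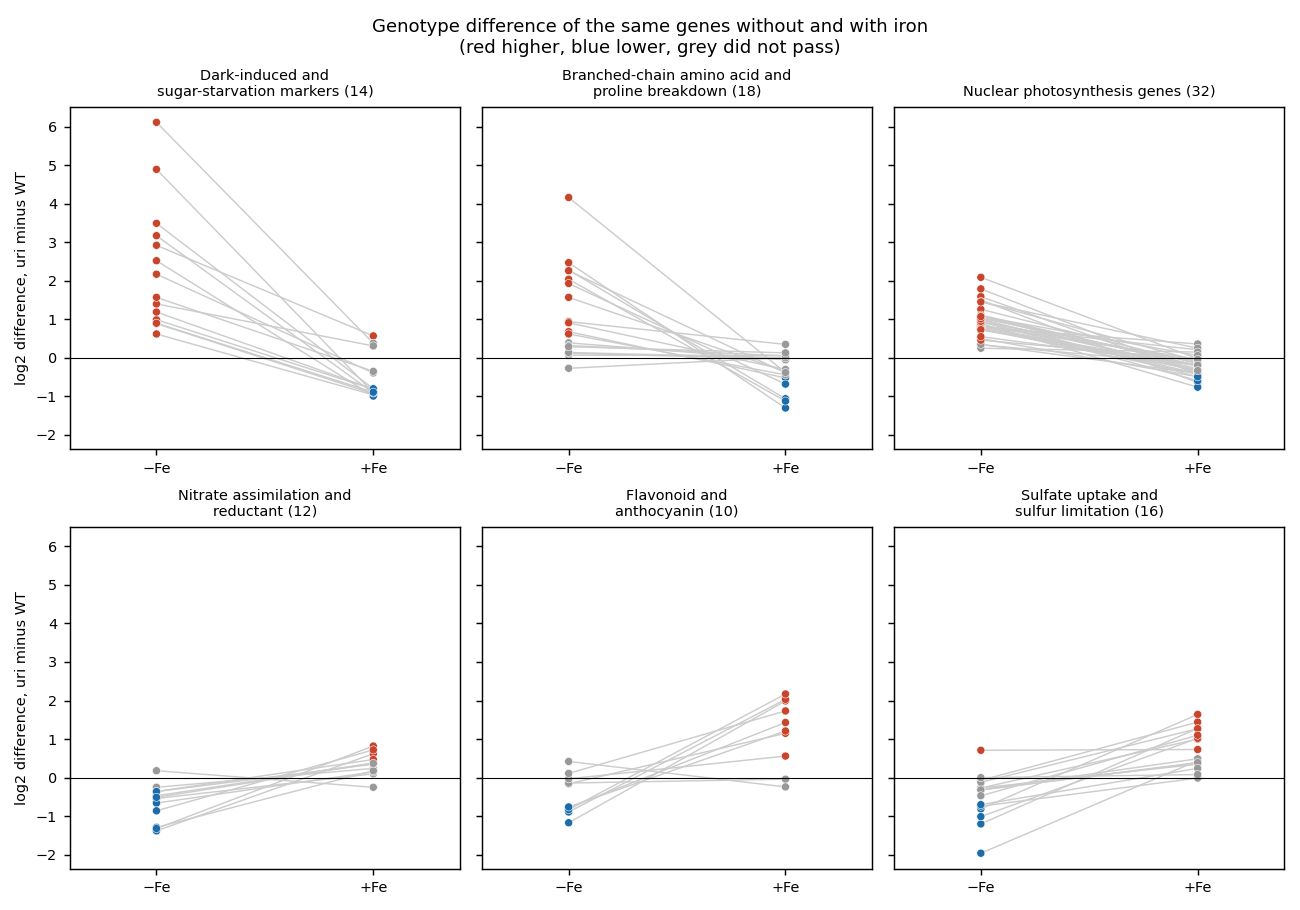
Log2 difference of uri minus WT for each measured gene of 6 lists, without iron on the left and with iron on the right of each panel, with a line joining the same gene. Dark-induced genes go from a median of 1.87 to -0.81 and flavonoid genes from -0.46 to 1.32.

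Some genes had the same direction in both iron supplies. CASP1 (-0.50, adjusted p = 0.0438), CASP2 (-0.72) and CASP4 (-0.82) were lower with iron too, and none of these 3 passed the interaction. None of them passed with iron without replicate 1 of WT +Fe or replicate 2 of uri +Fe. CASP1 passed with iron in none of the fits with 1 array left out, except the one without replicate 1 of uri +Fe. CASP2 also did not pass with iron without either WT -Fe array, nor CASP4 without replicate 2 of WT +Fe. Without iron, CASP2 did not pass when replicate 2 of uri -Fe was left out (a difference of -0.52). SEOR1 of the phloem (-0.70, adjusted p = 0.0065), FLA12 (-0.82) and UMAMIT17 (-1.46, adjusted p = 0.000145) were likewise lower in both. SUS4 was lower with iron as well (-0.95, adjusted p = 0.00923). FLA12 did not pass with iron without replicate 1 of WT +Fe (adjusted p = 0.0664), nor SUS4 without that array (adjusted p = 0.119) or replicate 2 of uri +Fe (adjusted p = 0.0669). The iron regulators, uptake genes and coumarin genes, in contrast, held 1 gene that passed with iron, which was URI itself. The other lists of iron transport did hold such genes. With iron 3 of 11 vacuolar metal transporters were lower, against 1.85% of all probe sets. Of 11 genes of long-distance iron transport 2 were higher with iron, against 1.37% of all probe sets.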

How the data were processed

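Root RNA of 4 groups with 2 arrays each was hybridised to 1-colour Affymetrix arrays. The authors deposited linear intensity values per probe set, made with RMA per the submitters' processing notes, whose version is not given in the sources used here; a deposited workbook holds the same values within 5e-06. Background correction and quantile scaling in RMA compress differences of dim probe sets and assume similar distributions on all arrays. The deposited intensities were taken to log2 here with no further scaling. From 22810 probe sets 64 controls were removed, and the remaining 22746 entered a fit with limma 3.58.1 (R 4.3.3; a mean per group over all 8 arrays, 4 residual and 8.32 prior degrees of freedom, two-sided, Benjamini-Hochberg over 22746). Counts are over 21180 probe sets annotated to 1 gene (21019 genes). The other 1039 hold several genes and 527 none. A gene with several probe sets is shown by the brightest. In simulated data with 200 changed probe sets per fold, 62.5% of 1.5-fold and 100% of 2-fold and 4-fold changes were recovered. False calls made up 11.97%, 3.85% and 6.54% of the calls at 1.5, 2 and 4-fold, above the 5% aimed at for 1.5 and 4-fold. The simulation had independent noise and far fewer changed probe sets than the 27.4% that passed here, so its rates need not hold for these data.

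Gene names are RefSeq symbols or those of the files. Lists (47 written by gene ID from general knowledge, 8 by family name) and members were chosen with earlier results of these data known. Of 613 genes in the hand lists 569 were measured, 30 shared a probe set with other genes, and 14, among them FIT and FRO2, were not analysed here. Named were 11 fixed iron genes (URI, PYE, BTS, bHLH39, bHLH101, AT1G47400, MYB72, IRT1, OPT3, AT3G13610, FER1), the 15 largest passing differences each way, up to 5 members per list by size, and members near 0. Other list members named (such as DIN10, BXL1, NRT2.2, LSU1, TOC1, GI, FAR1 and bHLH104) were chosen after their values were seen. Replicate numbers did not pair arrays (correlations of deviations -0.036 without and -0.223 with iron). Alternatives were the 4 -Fe arrays alone, a replicate block, median centring, quantile normalization, no dim probe sets, an intensity trend, adjustment over single-gene probe sets, the workbook and each array left out; a block with crossed numbers was chosen after seeing the data.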

Additional observations from a re-analysis of the deposited data

Results flagged for a closer look

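The genotype difference changed between the iron supplies, by a test of the interaction itself, for 4457 single-gene probe sets, among them genes named by rule. The values below are the genotype difference without iron minus that with iron, on the log2 scale. Among the 11 fixed iron genes it was -5.25 for MYB72, -3.57 for bHLH39, -3.15 for OPT3, -2.61 for AT3G13610, -2.09 for IRT1, -1.41 for AT1G47400, -1.17 for BHLH101, -0.95 for PYE, -0.66 for BTS and 0.97 for URI (bHLH121), whose transcript was lower in uri only with iron. FER1 did not pass (0.11).

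Of the genes with the lowest differences without iron, the value was -5.03 for NRT2:1, -4.39 for AT3G12900, -3.85 for BGLU42, -3.79 for AT5G38820, -3.44 for XTH31, -3.32 for GSTL1, -3.25 for AT5G62420, -3.21 for AT3G58060, -3.15 for MYB10, -3.13 for AT5G05250, -3.08 for AT5G04730 and -1.99 for AT5G10040. For the highest it was 5.89 for DIR5, 5.80 for SEN1, 5.73 for DIN11, 4.54 for BCAT-2, 4.29 for ATL8, 4.25 for JRG21, 4.09 for GAT1_2.1, 4.08 for UMAMIT33, 3.67 for XTH24, 3.62 for SWEET12, 3.50 for PDF1.4, 3.12 for MGL, 2.79 for both PPDK and AT5G07570, and 2.22 for ALMT1. Since these genes were picked for a large difference without iron, an interaction of the same sign is no independent support.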

How the results depend on the processing

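No setting turned the direction of any of the 287 genes named by rule, and 38 of the 254 that passed missed the threshold in at least 1 of 17 settings. Leaving out 1 array at a time gave 1560 to 3008 higher and 1891 to 3520 lower probe sets, and 515 to 527 higher and 458 to 567 lower at 2-fold or more. Fitting only the 4 -Fe arrays gave 3410 higher and 3896 lower. Median centring gave 53.2% of passing probe sets as higher in place of 45.8%. The replicate numbers did not pair the arrays; a replicate block gave 5582 passing probe sets (2523 higher, 3059 lower) and a block with crossed numbers, chosen after seeing the data, 5885. The other settings gave 2654 to 2807 higher and 3143 to 3374 lower. Of 110 list counts, 41 moved by more than 1.5 times in at least 1 setting, and the cytosolic ribosomal list counted 59 lower with an intensity trend; the causes were not tested. Promoter motifs were planned and not run, since no promoter sequences were used here. Dim probe sets limit folds, with 30 of the 515 higher ones under the lower quartile in WT -Fe and 29 of the 487 lower ones in uri -Fe. The smallest difference that passed was 0.32, a value that is no limit of detection, since FER4 passed at 0.30 when only the 4 -Fe arrays were fitted.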

Other observations

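Further genes of amino acid and organic acid metabolism stood among the highest differences, outside the lists and chosen after their values were seen. The asparaginase gene ASPGB1 read 7.73 and 7.85 in WT -Fe and 10.95 and 10.77 in uri -Fe, a difference of 3.07 ± 0.126. THA1, which splits threonine into glycine and acetaldehyde, read 5.22 and 5.28 in WT -Fe and 8.07 and 8.52 in uri -Fe (3.05 ± 0.156). Neither gene's -Fe groups overlapped. TDT, a vacuolar dicarboxylate transporter, was higher by 2.74 ± 0.119. The metallothionein gene MT2A, whose product binds metals, read 9.40 on both WT -Fe arrays, 12.18 and 12.15 in uri -Fe and 9.67 to 10.55 with iron (2.76 ± 0.113).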
